A study of Mus musculus with 9 samples.

Results

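Mast cell transcripts were followed through 4T1 primary tumors of mice treated with the FAK inhibitor BI 853520 (abbreviated BI) and of mice given its vehicle. The set held 9 genes, of 18755 in the count table: the tryptases Tpsb2 and Tpsab1, the chymases Cma1 and Mcpt4, the carboxypeptidase Cpa3, the receptors Kit, Ms4a2 and Fcer1a, and the histidine decarboxylase Hdc. They were selected on their measured difference between BI and vehicle in these same tumors, so that difference is described below and not tested. All 9 were found by Entrez identifier, and all 9 were among the 13966 genes that passed the filter on low counts. The 4T1 line is a murine mammary carcinoma line of BALB/c origin. For each tumor, 1000000 cells had been injected into mammary fat pad 9 of a female BALB/c mouse of 6 to 10 weeks of age. Starting 15 days after injection and for 5 days, the hosts of 6 tumors received 50 mg/kg BI and those of 3 tumors received 0.5% Natrosol, the vehicle. Each tumor, a piece of tissue with carcinoma and host cells, gave 1 library, and tumors are named by their sample number, vehicle tumors 1 to 3 and BI tumors 4 to 9. The labels do not state that every tumor came from a different mouse, so p-values measure the spread between these tumors.

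Mast cells are tissue-resident cells of the hematopoietic lineage that store mediators in granules, where proteases and histamine are bound to the proteoglycan serglycin. They depend on the receptor tyrosine kinase KIT and its ligand, stem cell factor, and they release their granules when antigen crosslinks IgE on the high-affinity receptor FceRI. In mice, the chymases Mcpt4 and Cma1, the tryptase Tpsb2 and Cpa3 are abundant in mast cells of connective tissue, whereas Mcpt1 and Mcpt2 mark mast cells of the mucosa. Histidine decarboxylase, which makes histamine, is also made by basophils and by immature myeloid cells, and Kit is also found in melanocytes and in some mammary epithelial cells.

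The libraries held between 16931607 and 33850245 counts on genes, and expression is given as CPM, counts relative to library size after TMM normalization. A floor of 3 counts was worth 0.0886 to 0.177 CPM, which covers counting error only. Within groups, pairs of tumors differed by a mean chi-square per gene of at least 8.48, far above sampling noise, so no library was counted as a copy of another. The mammary epithelial keratin Krt18 was high in every tumor (579 ± 57.7 CPM, SD, n = 3 in vehicle and 409 ± 58.3 CPM, n = 6 in BI), while the epithelial surface marker Epcam was at 2.13 ± 0.603 CPM (SD, n = 3) in vehicle tumors, so the labelled carcinoma was recognizable by its keratins but not by Epcam. Vehicle tumor 3 stood apart by transcripts of skin: Krt10 reached 11.5 CPM there, against at most 3.22 CPM in any of the other tumors. Its summed CPM of 10 skeletal muscle markers was also the highest, at 33.1, but closer to the next tumor, BI tumor 4 at 24.4.

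The promoters of the members are shown because most of these genes moved together across the tumors. The RefSeq promoter table used here (GRCm38.p6) had an entry for 7 of the 9 members, not for Tpsb2 and Tpsab1, and the 250 bases before each start were searched on both strands for the GATA letters AGATAA or TGATAA and for the E-box letters CACATG or CACGTG. Printed 5′ to 3′ along the gene, with matches in capitals (a match on the opposite strand reads TTATCT), 4 members with a GATA match and Hdc, which has none, have the following sequences.
Cpa3: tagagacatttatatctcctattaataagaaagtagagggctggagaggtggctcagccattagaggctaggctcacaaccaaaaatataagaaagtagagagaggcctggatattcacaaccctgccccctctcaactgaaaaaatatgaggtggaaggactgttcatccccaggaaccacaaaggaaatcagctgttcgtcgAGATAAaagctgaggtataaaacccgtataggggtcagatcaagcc
Mcpt4: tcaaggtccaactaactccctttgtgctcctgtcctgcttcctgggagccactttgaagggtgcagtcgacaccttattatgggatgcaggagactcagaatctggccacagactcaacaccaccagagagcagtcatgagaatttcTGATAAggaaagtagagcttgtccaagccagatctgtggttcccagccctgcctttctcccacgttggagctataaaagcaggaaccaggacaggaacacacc
Ms4a2: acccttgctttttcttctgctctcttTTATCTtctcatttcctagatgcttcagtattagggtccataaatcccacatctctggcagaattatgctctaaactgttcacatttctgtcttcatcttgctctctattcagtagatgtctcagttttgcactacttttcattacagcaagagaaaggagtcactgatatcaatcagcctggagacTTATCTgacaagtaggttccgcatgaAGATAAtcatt
Fcer1a: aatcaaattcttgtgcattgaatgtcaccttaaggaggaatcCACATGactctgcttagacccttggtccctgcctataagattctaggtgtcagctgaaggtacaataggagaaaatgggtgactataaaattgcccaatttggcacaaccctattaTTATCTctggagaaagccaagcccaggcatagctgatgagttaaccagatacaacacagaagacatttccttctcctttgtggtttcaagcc
Hdc: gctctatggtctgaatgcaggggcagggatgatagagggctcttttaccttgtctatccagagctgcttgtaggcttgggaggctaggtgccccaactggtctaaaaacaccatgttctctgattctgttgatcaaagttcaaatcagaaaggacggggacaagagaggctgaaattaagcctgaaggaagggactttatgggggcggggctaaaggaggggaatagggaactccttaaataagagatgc
They lie at chr3:20242182-20242431 (Cpa3), chr14:56062311-56062560 (Mcpt4), chr19:11623720-11623969 (Ms4a2), chr1:173227230-173227479 (Fcer1a) and chr2:126618679-126618928 (Hdc) of GRCm38.p6, all 5 on the minus strand. The GATA letters stood 46 to 41 bases upstream of the start in Cpa3, 103 to 98 bases upstream in Mcpt4, and 92 to 87 bases upstream on the opposite strand in Fcer1a. Ms4a2 had 3 matches, at 224 to 219 and 37 to 32 bases upstream on the opposite strand and at 11 to 6 bases upstream on the gene's strand. The E-box letters occurred in 1 member, Fcer1a, at 208 to 203 bases upstream. Cma1, Kit and Hdc held neither motif in this window. Cma1, whose sequence is not printed, still followed Cpa3 closely among the 6 BI tumors (Pearson's r = 0.995 in log2 CPM). A match was therefore not shared by all members that moved together, and a part of these letters in the levels was not tested. Of 32851 promoter windows of 250 bases in the same RefSeq table, 16.6% held the GATA letters and 17.6% the E-box letters, and a match describes the letters only.

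The tryptases are serine proteases stored as tetramers in the granule, and both were several-fold more abundant in most BI tumors. Tpsb2 (Entrez 17229; mm9 chromosome 17, 25503486 to 25505804, plus strand) measured 8.53, 4.74 and 2 CPM in vehicle tumors 1 to 3. In BI tumors 4 to 9 it measured 97.5, 48.8, 24.9, 26.7, 8.85 and 73.8 CPM. All 6 BI tumors lay above all vehicle tumors, although BI tumor 8 exceeded vehicle tumor 1 by a small margin. The means were 5.09 ± 3.28 CPM (SD, n = 3) and 46.7 ± 33.5 CPM (SD, n = 6), a log2 fold change of 3.25 with a standard error of 0.723. Tpsab1 (Entrez 100503895; chromosome 17, 25480190 to 25482507, minus strand) lies 21.0 kb from Tpsb2. It measured 12.3, 5.5 and 2.06 CPM in the vehicle tumors and 137, 60.4, 30.7, 36.7, 9.59 and 106 CPM in BI tumors 4 to 9. The groups overlapped, since BI tumor 8 was below vehicle tumor 1. The log2 fold change of Tpsab1 was 3.32 with a standard error of 0.803, and among the BI tumors the highest value was 14.3 times the lowest. RefSeq lists Tpsab1 as a transcribed pseudogene on GRCm38, an assembly of the C57BL/6 strain, whereas GENCODE lists it as protein coding on mm9, and no 50-base stretch of its transcripts occurred in another gene's transcripts.

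The chymases are chymotrypsin-like granule proteases from 1 cluster on chromosome 14, where Cma1 and Mcpt4 lie 115.1 kb apart with Cma2, Mcpt1, Mcpt9 and Mcpt2 between them. Cma1 (Entrez 17228; mm9 chromosome 14, 56560290 to 56563498, minus strand) measured 5.59, 2.77 and 2.65 CPM in vehicle tumors 1 to 3 and 66.5, 29.3, 17.9, 16.3, 6.16 and 48.9 CPM in BI tumors 4 to 9. No BI tumor fell below a vehicle tumor, and BI tumor 8 was again the closest to them. Its log2 fold change was 3.10 with a standard error of 0.678. Mcpt4 (Entrez 17227; 56678581 to 56681147, minus strand) measured 6.01, 2.82 and 2.33 CPM in the vehicle tumors and 75.1, 32.1, 18.1, 21.2, 5.48 and 56.7 CPM in BI tumors 4 to 9. Here BI tumor 8 lay below vehicle tumor 1, and the other 5 BI tumors lay above every vehicle tumor. The log2 fold change of Mcpt4 was 3.26 with a standard error of 0.73. Of the 50-base stretches of its transcript, 6.16% also occur in Cma2 or Mcpt9, so a small part of its sequence cannot be assigned to 1 gene, while Cma2 averaged 0.0491 ± 0.0416 CPM (SD, n = 6) and Mcpt9 0.0174 ± 0.0271 CPM (SD, n = 6) in BI tumors.

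The genes lying between the chymases did not share their level. Mcpt2 had 0, 2 and 16 counts in vehicle tumors 1 to 3 and 208, 18, 0, 11, 1 and 12 counts in BI tumors 4 to 9. Mcpt1 had at most 8 counts in any tumor except BI tumor 4, where it had 54. Thus the transcripts of both mucosal chymases were concentrated in BI tumor 4, the tumor with the highest level of every granule protease among the 9 genes. Scaled for gene length and library size as TPM, Mcpt2 averaged 5.15 TPM in BI tumors and Mcpt4 87.3 ± 66.3 TPM (SD, n = 6). Mcpt1 and Mcpt2 were singled out after their values had been seen, and Mcpt2 had an adjusted p of 0.142 (quasi-likelihood test of edgeR, Benjamini-Hochberg).

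Cpa3 encodes the mast cell carboxypeptidase, which trims peptides from their carboxyl end. Cpa3 (Entrez 12873; mm9 chromosome 3, 20115516 to 20142080, minus strand) measured 7.61, 3.89 and 3.33 CPM in vehicle tumors 1 to 3 and 82.3, 36.9, 20.3, 22.1, 6.79 and 53.6 CPM in BI tumors 4 to 9. The 5 BI tumors other than tumor 8 exceeded all vehicle tumors, and tumor 8 lay between vehicle tumors 1 and 2. The log2 fold change was 2.93 with a standard error of 0.674, and the highest BI tumor had 12.1 times the level of the lowest.

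**Figure D1:**
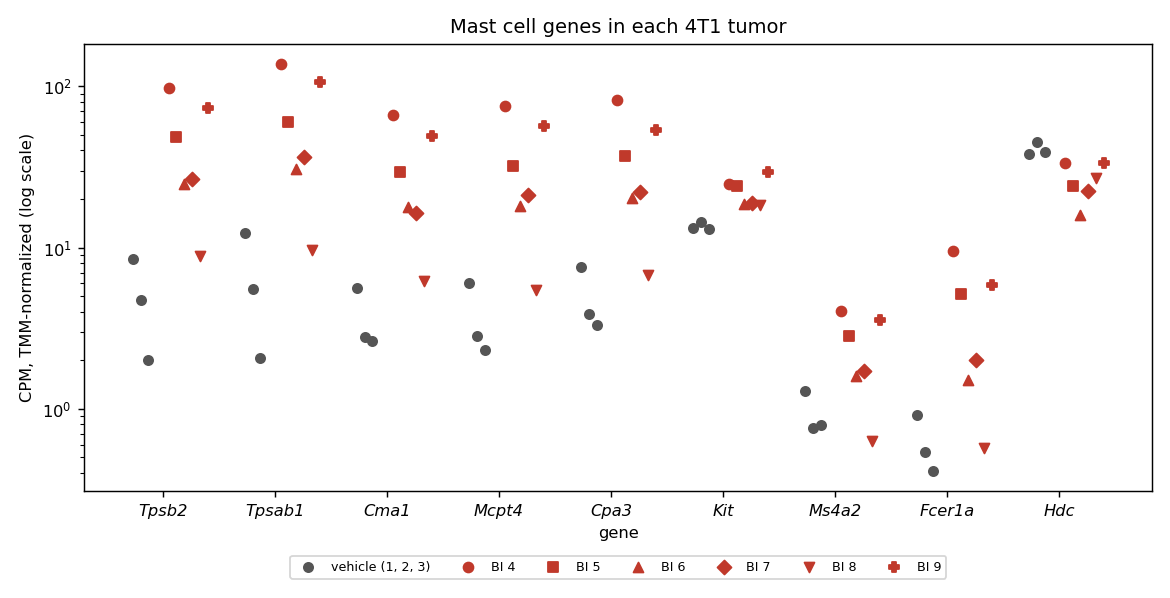
CPM (TMM-normalized, log scale) of the 9 mast cell genes, with 1 point per tumor, dark for the 3 vehicle tumors (1 to 3 from left to right) and red symbols for BI tumors 4 to 9. BI tumor 8 sits at the level of the vehicle tumors for the proteases, for Ms4a2 and for Fcer1a, BI tumor 4 is the highest BI tumor for 8 genes, and Hdc alone has all BI tumors below the vehicle tumors.

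The amount of protease transcript varied over a wider range than its make-up. The summed CPM of the 5 protease genes was 40, 19.7 and 12.4 in vehicle tumors 1 to 3 and 458, 207, 112, 123, 36.9 and 339 in BI tumors 4 to 9. As shares of their summed TPM in BI tumors, Tpsb2 took 23.6% ± 1.16, Tpsab1 27.9% ± 1.79, Cma1 15.8% ± 1.37, Mcpt4 18.7% ± 0.999 and Cpa3 14.0% ± 0.755 (SD, n = 6). The BI tumors with the least and the most protease transcript, tumors 8 and 4, had Cpa3 at 14.6% and 14.2%. Tumor 8 had the lowest shares of Tpsab1 (25.1%, against 28.8% in tumor 4) and Mcpt4 (17.2% against 19%) among the BI tumors, and the highest of Tpsb2 (25.3% against 22.5%) and Cma1 (17.8% against 15.5%). Vehicle tumors 1 and 2 were similar, with Tpsab1 at 29.8% and 27% and Cma1 at 15% and 15.1%. Vehicle tumor 3 differed: Tpsab1 was at 16.2%, Cma1 at 23.1% and Cpa3 at 21.5%, from 68 to 113 counts per gene. This was the library with the most skin and muscle transcript, and the part of those tissues in its make-up was not tested. In bulk tumors, fewer mast cells and less RNA per mast cell cannot be told apart.

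**Figure D2:**
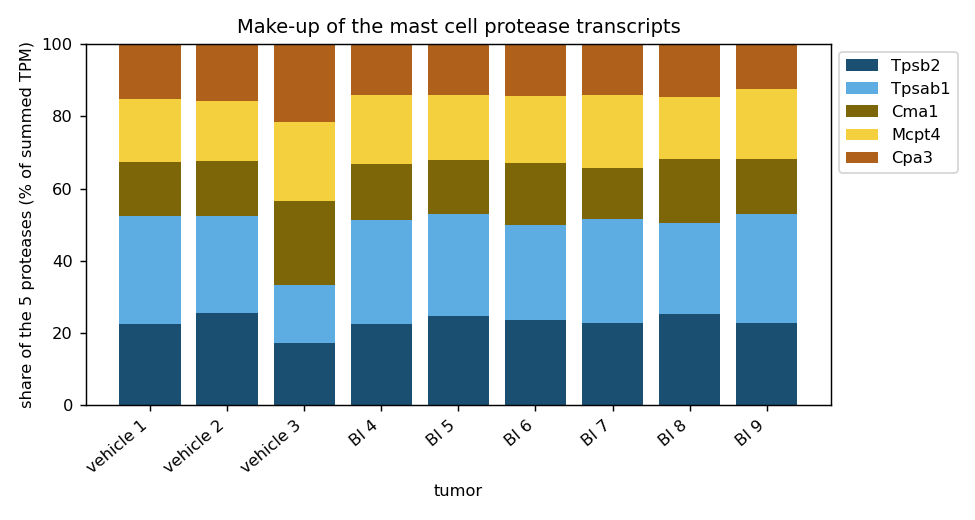
Each bar is 1 tumor and splits the summed TPM of the 5 mast cell proteases into shares (percent) of Tpsb2, Tpsab1, Cma1, Mcpt4 and Cpa3. The bars of the 6 BI tumors stay within a few percent of each other, with Cpa3 between 12.5% and 14.6% and Tpsab1 between 25.1% and 30%, while vehicle tumor 3 has less Tpsab1 (16.2%) and more Cpa3 (21.5%).

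The receptors differed among themselves. Fcer1a encodes the IgE-binding alpha chain of FceRI (Entrez 14125; mm9 chromosome 1, 175151402 to 175157360, minus strand). It measured 0.917, 0.537 and 0.412 CPM in vehicle tumors 1 to 3 and 9.54, 5.16, 1.5, 2.02, 0.571 and 5.86 CPM in BI tumors 4 to 9. It followed the proteases, with 5 BI tumors above every vehicle tumor and tumor 8 among them, from 10 counts in tumor 8 and 12 to 20 counts in the vehicle tumors. Its log2 fold change was 2.76 with a standard error of 0.782. Ms4a2, the beta chain of the same receptor (Entrez 14126; chromosome 19, 11690013 to 11698209, minus strand), measured 1.28, 0.76 and 0.795 CPM in the vehicle tumors and 4.06, 2.82, 1.59, 1.71, 0.628 and 3.54 CPM in BI tumors 4 to 9. Here tumor 8 was below all 3 vehicle tumors and the other BI tumors were above them. The log2 fold change of Ms4a2 was 1.35 with a standard error of 0.485, smaller than that of the alpha chain. Relative to Cpa3, in TPM, Ms4a2 stood at 0.0871 to 0.123 in vehicle tumors and at 0.0255 to 0.0477 in BI tumors, and tumor 8, with vehicle-like protease levels, had a ratio of 0.0477. The ratio of Fcer1a to Cpa3 overlapped between the groups, at 0.171 to 0.195 and 0.105 to 0.198.

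Kit (Entrez 16590; mm9 chromosome 5, 75970941 to 76052747, plus strand) encodes the receptor for stem cell factor. It measured 13.2, 14.4 and 13.1 CPM in vehicle tumors 1 to 3 and 24.7, 24, 18.5, 18.8, 18.3 and 29.3 CPM in BI tumors 4 to 9. All BI tumors lay above all vehicle tumors, in a narrow range in which the highest BI tumor had 1.6 times the level of the lowest. Its log2 fold change was 0.71 with a standard error of 0.151. In TPM, the ratio of Kit to Cpa3 ranged from 0.485 to 1.11 in vehicle tumors and from 0.0842 to 0.754 in BI tumors. Of other Kit-bearing cell types, melanocytes had few marker counts: of 5 melanocyte markers, Tyrp1 was not in the table, Dct, Mlana and Tyr had at most 1 count in any tumor, and Pmel measured 0.195 ± 0.0254 CPM (SD, n = 3) in vehicle and 0.494 ± 0.129 CPM (SD, n = 6) in BI tumors. Elf5, a transcription factor of the mammary alveolar lineage, averaged 0.165 ± 0.0267 CPM (SD, n = 3) in vehicle and 0.844 ± 0.511 CPM (SD, n = 6) in BI tumors, and its part in the level of Kit was not tested.

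Hdc (Entrez 15186; mm9 chromosome 2, 126419403 to 126445035, minus strand) moved the other way. It measured 38.2, 44.9 and 38.9 CPM in vehicle tumors 1 to 3 and 33.4, 24.2, 15.9, 22.3, 27 and 33.3 CPM in BI tumors 4 to 9. Every BI tumor lay below every vehicle tumor, and tumors 4 and 9, the richest in protease transcript, were the highest of the 6. The log2 fold change of Hdc was -0.65 with a standard error of 0.184. Neutrophil markers were lower in the same tumors: 4 of the 8 tested fell and none rose at an adjusted p of 0.05 in edgeR. Of all genes tested, 14.1% fell and 14.6% rose. The summed CPM of the list was between 539 and 764 in vehicle and between 226 and 383 in BI tumors. S100a9, the most abundant of these markers, had 384 ± 72.6 CPM (SD, n = 3) and 156 ± 34.8 CPM (SD, n = 6). The part of neutrophils in the level of Hdc was not tested. Relative to Cpa3 in TPM, Hdc stood at 3.07 to 7.13 in vehicle tumors and at 0.248 to 2.43 in BI tumors.

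Across the 9 genes, the median log2 fold change was 2.93, where that of all genes tested was -0.00371. For 3 members (Tpsb2, Cma1 and Kit) every BI tumor lay above every vehicle tumor, a pattern found in 14.1% of all genes tested, and for 1 member (Hdc) every BI tumor lay below, found in 14% of all genes. Since the contrast chose the members, these counts are a description. Both ends of the BI range were set by single tumors, with tumor 4 the highest for 8 members and tumor 8 the lowest for 8. Leaving out vehicle tumor 1, the vehicle tumor with the most protease transcript, raised the log2 fold change of Tpsab1 to 4.13, and leaving out vehicle tumor 3 lowered it to 2.83. For Cpa3 the range was 2.52 (without BI tumor 4) to 3.37 (without vehicle tumor 1).

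Ordered by mean TPM in vehicle tumors, Hdc stood first (42.5 ± 3 TPM, SD, n = 3), followed by Tpsab1 (13.8 ± 10.9), Tpsb2 (11.6 ± 7.47), Mcpt4 (9.34 ± 5.03), Cma1 (8.5 ± 3.86), Cpa3 (8.47 ± 3.99), Kit (6.52 ± 0.232), Fcer1a (1.51 ± 0.635) and Ms4a2 (0.838 ± 0.261). In BI tumors the order began with Tpsab1 (132 ± 102 TPM, SD, n = 6), Tpsb2 (107 ± 77.3), Mcpt4 (87.3 ± 66.3), Cma1 (71.2 ± 53) and Cpa3 (63.3 ± 47.2). Hdc came next at 27.1 ± 7.2 TPM, then Kit (10.6 ± 2.24), Fcer1a (9.97 ± 8.28) and Ms4a2 (2.11 ± 1.17). Neighbours among the 5 proteases did not differ beyond their spread between tumors in either group. That spread does not use the fact that all 5 were measured in the same tumors. As shares of their summed TPM in BI tumors, Tpsb2 (22.5% to 25.3%) stayed above Mcpt4 (17.2% to 20%), while the ranges of other neighbours overlapped. The TPM ratio of Tpsab1 to Tpsb2 was 0.99 in BI tumor 8, 1.13 to 1.31 in the other BI tumors and 0.94 to 1.32 in vehicle tumors. Hdc stood above the proteases by more than their spread in vehicle tumors, and in BI tumors its range overlapped theirs.

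Among the 6 BI tumors alone, where the difference between the groups plays no part, the members were compared with Cpa3 as log2 CPM. In the same way 13 marker lists of other cell types were compared, as the mean log2 CPM of each list, which made 21 relations in all. Of these, 7 passed an adjusted p of 0.05 for Pearson's r, 6 of them members. Tpsb2, Tpsab1 and Mcpt4 had r of 0.998, 0.997 and 0.997 and a Spearman's rho of 1 each (two-sided exact permutation p = 0.00139 for r and 0.00278 for rho, adjusted p = 0.00583 and 0.0117). Ms4a2 (r = 0.992) and Fcer1a (r = 0.985) had the same rank order, the same rho of 1 and the same exact permutation p-values. Cma1 had r = 0.995 and rho = 0.943 (exact permutation test, adjusted p = 0.00972 and 0.05). Without tumors 4 and 8, the 2 farthest from the median of Cpa3, r of these 6 genes lay between 0.961 and 1. Over the same 4 tumors the adipocyte (0.983), eosinophil (0.937) and skeletal muscle (0.902) lists were as high or nearly so, so these 4 tumors alone do not set the members apart. The smallest two-sided p that 6 tumors allow here is 0.00139, and the members had been chosen for a shared cell type.

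Kit and Hdc followed Cpa3 less closely. For Kit, r was 0.808 and rho 0.943 (two-sided p = 0.0347 and 0.0167 in the exact permutation test, 0.0911 and 0.05 after adjustment), and for Hdc r was 0.455 and rho 0.657 (two-sided p = 0.353 and 0.175 in the exact permutation test, 0.617 and 0.334 after adjustment). Without tumors 4 and 8, r was 0.998 for Kit and 0.913 for Hdc over the 4 tumors left. Tumor 8 had the least Cpa3 and a middling level of Hdc (27 CPM), and without that tumor alone r of Hdc was 0.912.

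Of the lists of other cell types, that of basophils passed for r (0.91, two-sided exact permutation p = 0.0111, adjusted p = 0.0333) but not for rho (0.886, p = 0.0333, adjusted p = 0.0875 in the same exact test), and r was 0.726 without tumors 4 and 8. The call for r was lost, at an adjusted exact permutation p of 0.0875, with a smaller prior count in the log2 CPM, and at 0.125 to 0.227 without BI tumor 4, 6, 8 or 9. Of its 3 genes tested, Cd200r3 is also expressed by mast cells, whereas Mcpt8, the basophil protease, had 31.4, 23.2, 44.9, 40, 30 and 49.7 CPM in BI tumors 4 to 9, with tumor 4 below tumors 6, 7 and 9. The other tested gene, Prss34, was lowest of the BI tumors in tumor 4 (0.331 CPM) and highest in tumor 5 (1.3 CPM). The mean of the list also held Il4, which was below the filter, with 0 to 5 counts in BI tumors and the most in tumor 4. The list of skeletal muscle had r = 0.75 (rho = 0.771, exact permutation test, adjusted p = 0.188 and 0.216). Macrophages had r = 0.592 (rho = 0.371), endothelium r = 0.55 (rho = 0.486), fibroblasts r = 0.343 (rho = 0.486) and adipocytes r = 0.0174 (rho = -0.0286), with adjusted exact permutation p of at least 0.405 for r and 0.574 for rho. Without tumors 4 and 8, r of the adipocyte list was 0.983, so its low value over 6 tumors rests on those tumors. The remaining lists (eosinophil, neutrophil, dendritic cell, melanocyte, carcinoma epithelium, skin keratinocyte and peripheral nerve) had r between -0.367 and 0.278. No batch is named in the labels, so no relation could be recomputed within one.

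**Figure D3:**
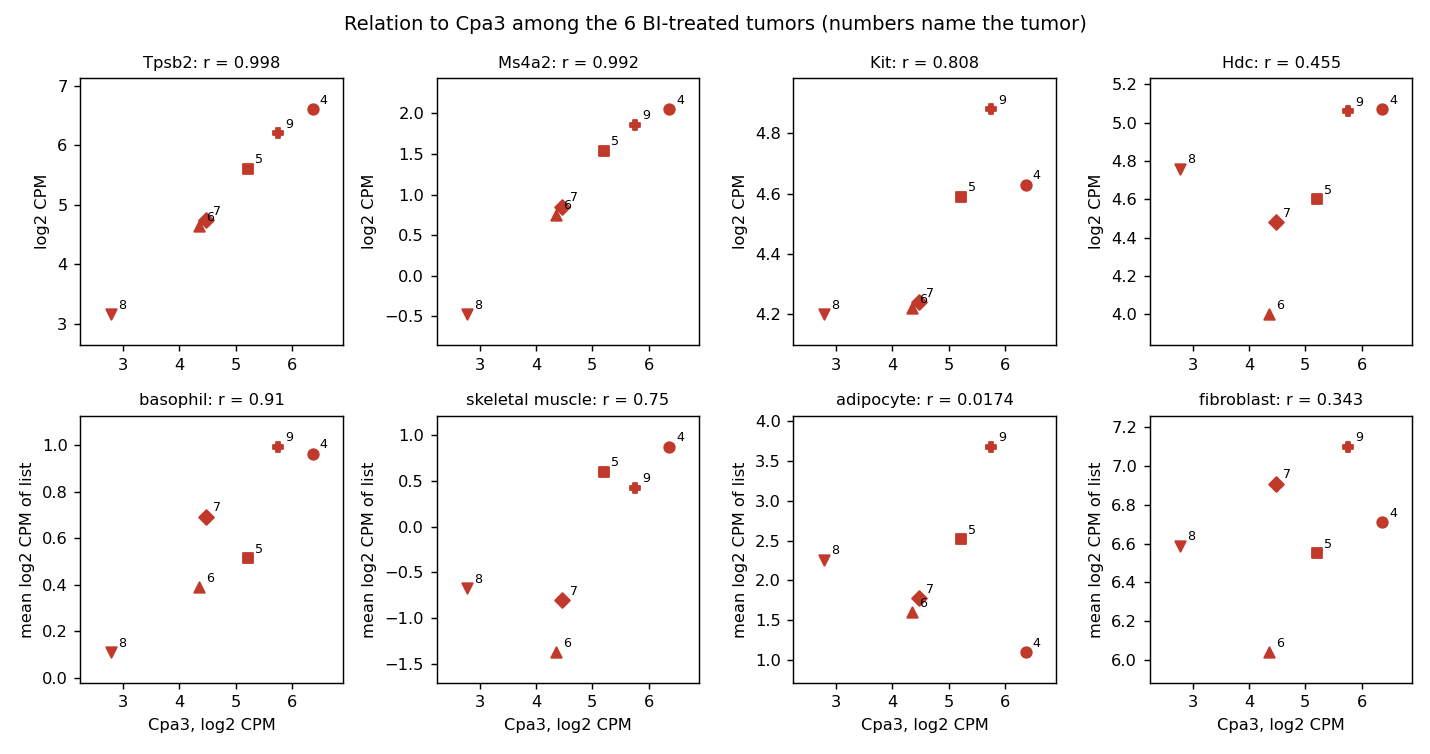
For the 6 BI tumors, each marked by its number, the log2 CPM of Cpa3 (horizontal) is set against the log2 CPM of Tpsb2, Ms4a2, Kit and Hdc and against the mean log2 CPM of 4 marker lists (vertical, scales differ between panels). Tpsb2 and Ms4a2 lie on a line with r of 0.998 and 0.992, Hdc scatters with tumor 8 off the rest, and the adipocyte list has r of 0.0174 over the 6 tumors and 0.983 without tumors 4 and 8.

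To find genes that varied like the members, log2 CPM were centred on the mean of each group and correlated over the 9 tumors with the mean of the 9 standardized members, which is a description without a test. The members themselves had r between 0.56 (Hdc) and 0.984 (Fcer1a). Of 13957 other genes, 33 reached an r of 0.9. The first 10 were Dock9 (0.973), Ambp (0.969), Mrgprb1 (0.963), Slc6a4 (0.953), Tph1 (0.948), Pde1b (0.945), Mrgprb2 (0.942), Pqlc3 (0.939), Atp8b4 (0.935) and Dnase1l1 (0.933). Mrgprb1 and Mrgprb2 encode receptors of mast cells, Tph1 makes the serotonin precursor in non-neuronal cells and Slc6a4 takes serotonin up. Mrgprb1 measured 1.88, 0.716 and 0.501 CPM in vehicle tumors 1 to 3 and 19.7, 8.45, 5.22, 4.77, 1.54 and 12.9 CPM in BI tumors 4 to 9, in nearly the same order as Cpa3. Slc6a4 had between 0.0884 and 0.224 CPM in vehicle tumors and between 0.342 and 3.13 CPM in BI tumors, again with tumor 8 lowest. Dock9, a guanine nucleotide exchange factor, shared the order of the tumors within each group but not the difference between the groups. It measured 123, 119 and 110 CPM in the vehicle tumors and 101, 96.6, 80.3, 85.3, 77 and 97.5 CPM in BI tumors 4 to 9. Its log2 fold change was -0.39 (SE 0.0884, adjusted p = 0.00725, edgeR's quasi-likelihood test). Ambp, at 0.648 CPM in BI tumors on average and 1.2 CPM in vehicle tumors, had a log2 fold change of -0.88 (SE 0.336, adjusted p = 0.0692 in the same edgeR test).

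Genes of the pathways around mast cells were examined next with edgeR's quasi-likelihood test, adjusted by Benjamini-Hochberg over all 13966 genes. With a limit of 0.05 on the adjusted p, 14.6% of all genes rose and 14.1% fell. Of 15 other mast cell identity genes, 14 were tested, 10 rose and none fell, with a median log2 fold change of 0.96. The 3 with the smallest p were Rasgrp4, a Ras activator of mast cells (13.5 ± 1.61 to 20.1 ± 2.46 CPM, SD, n = 3 and 6, log2 fold change 0.58, SE 0.117, adjusted p = 0.0037 in edgeR), Mlph, an adaptor of vesicle transport (0.822 ± 0.38 to 2.54 ± 0.927 CPM, 1.63, SE 0.353, adjusted p = 0.00544 in edgeR), and Milr1, the inhibitory receptor Allergin-1 (19 ± 1.71 to 27.2 ± 3.52 CPM, 0.52, SE 0.113, adjusted p = 0.00559 in edgeR). For these 3 genes all 6 BI tumors, tumor 8 included, lay above every vehicle tumor, as for 14.1% of all genes tested. The highest BI tumor had 1.39 (Rasgrp4), 2.33 (Mlph) and 1.46 (Milr1) times the level of the lowest, against 12.1 times for Cpa3. Of 8 macrophage markers, 7 rose and none fell in the same test, and the part of macrophages in the level of these 3 genes was not tested. Mrgprb1 rose by a log2 fold change of 3.15 (SE 0.742, adjusted p = 0.00852 in edgeR) and Mrgprb2 by 2.49 (SE 0.743, adjusted p = 0.026 in edgeR). Both calls were lost with limma-voom (adjusted p = 0.0507 and 0.0572) and without vehicle tumor 3 (edgeR, 0.0512 and 0.114), and that of Mrgprb2 also without vehicle tumor 2 (0.0857). Without vehicle tumor 3, the rising identity genes numbered 5 in edgeR's test.

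The genes that carry the signal from FceRI rose more uniformly than the receptor chains above. Of 18 genes of IgE receptor signalling, 16 rose and 1 fell, where 14.6% and 14.1% of all genes tested did. The median log2 fold change of the 18 was 0.71. All 16 lay above every vehicle tumor in every BI tumor, a pattern found in 14.1% of all genes tested. Inpp5d, an inositol phosphatase that limits the signal, had 72.1 ± 4.13 CPM in vehicle and 136 ± 7.24 CPM in BI tumors (SD, n = 3 and 6, log2 fold change 0.92, SE 0.0633, adjusted p = 8.76e-06 in edgeR). Plcg2 rose from 81.9 ± 2.15 to 188 ± 27 CPM (1.20, SE 0.11, adjusted p = 3.59e-05 in edgeR) and the kinase Btk from 15 ± 1.5 to 28.1 ± 2.3 CPM (0.90, SE 0.0931, adjusted p = 5.74e-05 in edgeR). Fcer1g, the signalling gamma chain that FceRI shares with Fc receptors of macrophages, was the most abundant. It measured 185, 159 and 164 CPM in the vehicle tumors and 316, 265, 269, 310, 258 and 313 CPM in BI tumors 4 to 9. BI tumor 8, at vehicle level for Fcer1a and Ms4a2, lay above all vehicle tumors for this chain. Plcg1, which fell, had 123 ± 12.1 and 106 ± 7.24 CPM (log2 fold change -0.22, SE 0.0743, adjusted p = 0.0441 in edgeR). That call of Plcg1 was lost without a filter on low counts (0.0523), with a filter of 1 CPM in 3 tumors (0.054) and without any 1 of vehicle tumors 2 and 3 and BI tumors 4, 7, 8 and 9 (0.059 to 0.216, all in edgeR). These signalling genes are also used by other leukocytes. Of 8 macrophage markers, 7 rose and none fell in the same test, and the summed CPM of that list was between 1640 and 2220 in vehicle tumors and between 3250 and 4050 in BI tumors. BI tumor 8 had the lowest macrophage sum of the BI tumors, 3250 CPM, which was still above every vehicle tumor, and the part of macrophages in the level of the signalling genes was not tested.

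In the same test, 14.6% of all genes rose and 14.1% fell. Of 16 genes for the KIT ligand and for cytokines acting on or made by mast cells, 8 passed the filter, 5 rose and 1 fell. The rising genes included Csf2rb2 (34.6 ± 0.772 to 58.9 ± 6.02 CPM, SD, n = 3 and 6, log2 fold change 0.77, adjusted p = 9.62e-05 in edgeR) and Csf2rb (83.9 ± 3.81 to 127 ± 13.1 CPM, 0.59, adjusted p = 0.000504 in edgeR), beta chains of the receptors for IL-3, IL-5 and GM-CSF. Tslp, an epithelial cytokine, was the most abundant and rose from 1120 ± 186 to 1580 ± 186 CPM (0.50, SE 0.119, adjusted p = 0.00904 in edgeR), a call lost without vehicle tumor 1 (0.0537) or 3 (0.055). Il33, an alarmin that activates mast cells, fell from 40 ± 6.5 to 23.4 ± 2.88 CPM (-0.77, SE 0.117, adjusted p = 0.000598 in edgeR), with every BI tumor below every vehicle tumor. Kitl, which encodes stem cell factor and was picked out after its values had been seen, measured 50.6, 65.1 and 47.6 CPM in the vehicle tumors and 100, 157, 96.2, 87.1, 65.4 and 84.5 CPM in BI tumors 4 to 9. All BI tumors were above the vehicle tumors, with tumor 8 only just so, and the log2 fold change of Kitl was 0.86 (SE 0.222, adjusted p = 0.0136 in edgeR). That call was lost without vehicle tumor 1 (0.0588) or 3 (0.0699), and without tumor 3 the rising genes of the list numbered 2. Il3, Il4, Il5, Il9r and Il13 were among the genes below the filter, and Il9 was not in the table.

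Of 12 transcription factors used by mast cells, 11 were tested, 6 rose and none fell, where 14.6% and 14.1% of all genes tested did. The median log2 fold change of the list was 0.30. The 6 (Lyl1, Lmo2, Spi1, Cebpa, Stat5a and Stat5b) are factors of hematopoietic or myeloid cells in general. The macrophage markers, of which 7 of 8 rose, moved in the same tumors (summed CPM of 1640 to 2220 in vehicle and 3250 to 4050 in BI), and their part in the level of these factors was not tested. Lyl1 rose from 7.09 ± 0.605 to 19.2 ± 3.1 CPM (SD, n = 3 and 6, log2 fold change 1.45, SE 0.14, adjusted p = 4.16e-05 in edgeR), Cebpa from 18.9 ± 3.07 to 33.3 ± 2.38 CPM (0.82, SE 0.105, adjusted p = 0.000217) and Lmo2 from 27 ± 2.04 to 44.3 ± 4.64 CPM (0.72, SE 0.0942, adjusted p = 0.000257, all in edgeR). Runx1, the most abundant, had 324 ± 22.7 and 340 ± 19 CPM (0.07, adjusted p = 0.457 in edgeR). The lineage factors Gata2 and Mitf, named here after their values were seen, had log2 fold changes of 0.11 (SE 0.118) and 0.19 (SE 0.117), with adjusted p of 0.518 and 0.246 in edgeR. Gata1 had at most 10 counts in any tumor and was not tested.

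The granule proteoglycan, amine and eicosanoid genes went in both directions. Of 17 tested, 5 rose (29.4%) and 3 fell (17.6%), where 14.6% and 14.1% of all genes tested did. The falling share was thus close to that of all genes. Ctsc, the protease that activates granule proteases, was the most abundant and rose from 563 ± 52.7 to 1030 ± 97.5 CPM (SD, n = 3 and 6, log2 fold change 0.87, SE 0.0938, adjusted p = 7.57e-05 in edgeR). Hpgds, the prostaglandin D2 synthase of mast cells and macrophages, rose from 15.2 ± 1.45 to 30.9 ± 5.09 CPM (1.03, SE 0.137, adjusted p = 0.000271 in edgeR), and Alox5ap from 81 ± 8.86 to 118 ± 13.8 CPM (0.55, SE 0.102, adjusted p = 0.0023 in edgeR). Ptgs2, the inducible cyclooxygenase, fell from 344 ± 65.9 to 148 ± 57.1 CPM (-1.22, SE 0.258, adjusted p = 0.00468 in edgeR), and Pla2g4a, which releases arachidonic acid, from 155 ± 14.8 to 97.5 ± 13.3 CPM (-0.67, SE 0.105, adjusted p = 0.000763 in edgeR). Ltc4s, the leukotriene C4 synthase, fell from 8.07 ± 2.07 to 4.46 ± 1.23 CPM (-0.85, SE 0.22, adjusted p = 0.0134 in edgeR), a call lost without vehicle tumor 2 (0.079). Of the other chymase and tryptase locus proteases, 5 of 11 were tested, 2 rose (40%, against 14.6% of all genes) and none fell. The 2 were Gzmb, the granzyme of cytotoxic lymphocytes (26.7 ± 5 to 71.2 ± 12 CPM, 1.42, SE 0.16, adjusted p = 0.000103 in edgeR), and Ctsg, a protease of myeloid cells (0.794 ± 0.512 to 2.17 ± 0.884 CPM, 1.38, SE 0.438, adjusted p = 0.0338 in edgeR). Ctsg measured 3.17, 2.29, 1.45, 2.02, 0.97 and 3.13 CPM in BI tumors 4 to 9, the tumor order of Cpa3. This order was looked up after the values had been seen. The call of Ctsg was lost without vehicle tumor 1 or 2 or BI tumor 4, 7 or 9 (0.0518 to 0.126 in edgeR).

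**Figure D4:**
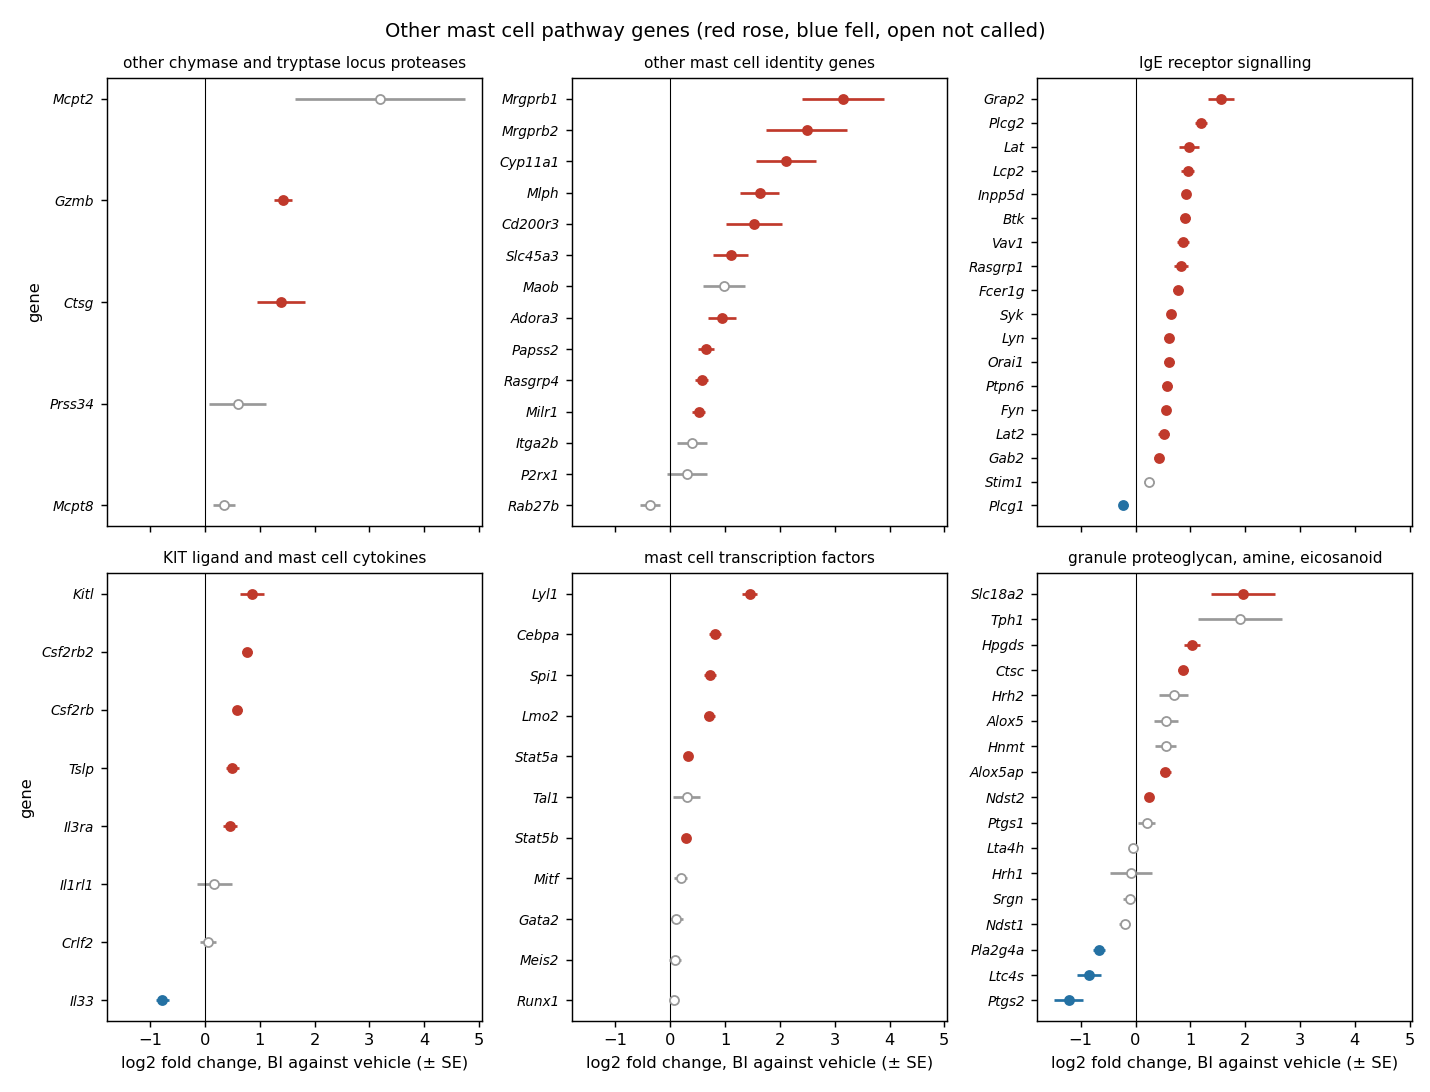
Log2 fold changes of BI against vehicle with standard errors (edgeR) for the tested genes of 6 lists around mast cells, red where a gene rose, blue where it fell and open where the adjusted p was above 0.05. Of the IgE receptor signalling genes, 16 rose and Plcg1 fell, while the granule and eicosanoid genes include Ptgs2, Ltc4s and Pla2g4a among those that fell.

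Markers of other cells that a tumor piece could hold were counted in the same edgeR test, in which 14.6% of all genes rose and 14.1% fell. Dendritic cell markers rose in 4 of 6, fibroblast markers in 3 of 10 with 1 falling, endothelial markers in 3 of 7, and adipocyte markers in 1 of 10. The basophil and eosinophil lists had 1 rising gene each, of 3 and 4 tested, and the basophil protease Mcpt8 had 28.7 ± 4.7 CPM (SD, n = 3) in vehicle and 36.5 ± 10 CPM (SD, n = 6) in BI tumors (log2 fold change 0.35, SE 0.207, adjusted p = 0.232 in edgeR). The eosinophil peroxidase Epx, which had 20 counts in vehicle tumor 3, had at most 4 counts in any of the other tumors. Carcinoma epithelium had 1 rising and 2 falling genes of 6, skeletal muscle 1 falling of 8 and peripheral nerve 1 falling of 5. Some of these shares lay near those of all genes, such as adipocytes (10% rising) and skeletal muscle (12.5% falling). Of the melanocyte and keratinocyte lists only 1 gene each was tested: Pmel rose (log2 fold change 1.33, adjusted p = 0.0247 in edgeR, but 0.0998 without vehicle tumor 3 and 0.054 with DESeq2) and Krt10 fell (-1.61, adjusted p = 0.0176 in edgeR, but 0.265 without vehicle tumor 3). Summed CPM of the adipocyte list were between 46.7 and 79.5 in vehicle tumors and between 73.7 and 379 in BI tumors, with the highest value in tumor 9, second in protease transcript, and 80.5 in tumor 4, which had the most. The fibroblast list summed to between 1880 and 3280 CPM in vehicle and between 2560 and 5710 CPM in BI tumors, and tumor 8, lowest in proteases, had 3960 CPM. The part of these cell types in the level of the mast cell genes was not tested.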

How the data were processed

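Messenger RNA of 9 tumors (3 vehicle, 6 BI) was sequenced by the authors with a stranded, paired-end protocol. Per their methods, reads with a unique STAR alignment to mm9 were kept, and QuasR counted those starting in any exon of a RefSeq gene; strand handling in the counting is not given in the sources used here. The deposited values are raw counts per gene for 18755 genes, with a gene length that was used here for TPM. Antisense or overlapping genes were checked on mm9 with GENCODE, and no exon of a member overlaps the position of another gene's exon. This does not cover like sequence elsewhere, which Mcpt4 has in 6.16% of its 50-base stretches (Cma2 or Mcpt9).

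Differences were tested in R 4.3.3 by edgeR 4.0.16, with TMM factors, genes kept by filterByExpr (minimum count 10, minimum total 15), the quasi-likelihood F test over all 9 tumors without covariates, and Benjamini-Hochberg adjustment, with a call at an adjusted p of at most 0.05. Log2 CPM used a prior count of 2. The procedure was tested on simulated data before use. Correlations used scipy 1.17.1 with exact permutation tests. Total counts ran from 16931607 to 33850245.

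The 9 members, the 6 pathway lists and the 13 marker lists were chosen with earlier results of these data known. All members are named, and so are the 3 genes with the smallest p in each direction among those called and the most abundant gene of each pathway list, the most abundant gene of marker lists, and the 10 genes most like the members; further genes are marked in the text or named as markers, and some single genes of the lists are not reported here. RefSeq gave symbols for 18700 of 18755 Entrez identifiers, and promoter sequences on GRCm38.p6.

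Alternatives were RLE size factors, library size, no filter, a filter of 1 CPM in 3 tumors, edgeR's likelihood ratio test, DESeq2 1.42.0, limma-voom (limma 3.58.1), unadjusted p of at most 0.05 with a 1.5-fold limit, a prior count of 0.5, shares of raw counts, and leaving out each tumor.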

Additional observations from a re-analysis of the deposited data

Results flagged for a closer look

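Of 74 results checked for 1 BI tumor far from the other 5, 6 stood out, where chance flags about 1 in 20 groups. Fabp4, an adipocyte gene, reached 210 CPM in BI tumor 9, and the adipocyte list summed to 379 CPM there, both the highest of the BI tumors. Mlph was highest in the same tumor, at 4.41 CPM. The share of Cpa3 among the 5 proteases was lowest in BI tumor 9, at 12.5%. Pmel was lowest in BI tumor 4, at 0.236 CPM, and as the only melanocyte marker with counts in that tumor it gave the melanocyte list the same summed value of 0.236 CPM. No explanation was tested for these values.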

How the results depend on the processing

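The log2 fold changes of the 9 members were recomputed under other normalizations, other filters, DESeq2 and with each tumor left out, not under the likelihood ratio test or limma-voom. They kept their direction in each of these runs. Their median was 2.91 to 2.94 under other normalizations, filters and DESeq2 and 2.52 to 3.37 with each tumor left out. With an unadjusted p of at most 0.05 and a 1.5-fold limit, 1337 genes rose and 498 fell in place of 2040 and 1973, the falling count of IgE receptor signalling was 0 and the rising count of KIT ligand and cytokines 3. The falling count of IgE receptor signalling was also 0 without a filter and with the filter of 1 CPM in 3 tumors. With edgeR's likelihood ratio test and with DESeq2, 8 granule and eicosanoid genes rose in place of 5. As shares of raw counts, which are not scaled for length, Mcpt4 took 16.1% and Cpa3 19.1% on average, in place of 18.7% and 15.1%. With each tumor left out in turn, 1332 to 2026 genes rose and 1172 to 1980 fell, both lowest without vehicle tumor 3, and without vehicle tumor 1 the falling genes numbered 1289. The corresponding ranges were 1 to 2 rising locus proteases, 5 to 10 rising and 0 to 1 falling identity genes, 0 to 1 falling IgE receptor signalling genes, and 2 to 5 rising KIT ligand and cytokine genes, 3 of them without vehicle tumor 1. Leaving out a tumor also leaves fewer tumors for the test, and the cause of the other shifts was not tested. Among relations to Cpa3, that of the eosinophil list was 0.0195 with a prior count of 0.5 and -0.348 to 0.802 with single tumors left out. Relations that changed sign without some tumor ranged from -0.299 to 0.278 for neutrophils, -0.1 to 0.709 for macrophages, -0.591 to 0.516 for melanocytes, -0.732 to 0.56 for carcinoma epithelium, -0.545 to 0.558 for adipocytes and -0.476 to 0.65 for peripheral nerve. That of Cma1 had an adjusted p of 0.0583 without BI tumor 4 or 8, and that of Kit one of 0.0292 without BI tumor 9 (exact permutation tests). No paired analysis was possible because the groups share no replicate numbers. Depth limits genes with few counts in vehicle tumors and in BI tumor 8, among them Fcer1a, Ms4a2, Mcpt1, Mcpt2, Mrgprb2, Slc18a2, Slc6a4 and Tph1.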

Other observations

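Among other genes of mast cell lists, steroid and serotonin genes had the order of the proteases in part; they were named after their values had been seen. Cyp11a1, the enzyme that starts steroid synthesis, measured 1.42, 0.313 and 1.36 CPM in vehicle tumors 1 to 3 and 8.22, 4.22, 2.66, 2.83, 1.94 and 7.36 CPM in BI tumors 4 to 9. All BI tumors lay above the vehicle tumors (log2 fold change 2.11, SE 0.546, adjusted p = 0.0136, edgeR's quasi-likelihood test, Benjamini-Hochberg). Slc18a2, the vesicular monoamine transporter, had 0.275 to 0.589 CPM in vehicle tumors and 0.457 to 3.68 CPM in BI tumors (1.96, SE 0.588, adjusted p = 0.0266 in the same edgeR test). Its call was lost with limma-voom (adjusted p = 0.0741) and without any 1 of the vehicle tumors (0.0622 to 0.0989 in edgeR). Tph1 had 0.171 CPM in BI tumor 8 and 5.43 CPM in BI tumor 4 (log2 fold change 1.91, SE 0.766, adjusted p = 0.0812 in edgeR). Srgn, which encodes the granule proteoglycan serglycin and is expressed by many leukocytes, had 532 ± 89.7 CPM (SD, n = 3) in vehicle and 496 ± 61.8 CPM (SD, n = 6) in BI tumors (log2 fold change -0.10, SE 0.119, adjusted p = 0.555 in edgeR).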
